A study of Mus musculus with 24 samples.

Results

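The genes described are 8 inflammatory CC chemokines of the mouse, Ccl2, Ccl3, Ccl4, Ccl5, Ccl6, Ccl7, Ccl9 and Ccl12. They were picked by symbol from the 54532 genes of the deposited table, and all 8 were found. RNA was sequenced in 24 libraries, which fall into 8 groups of 3. The cells were macrophages (BMDMs) or dendritic cells (BMDCs), each grown from bone marrow. Every mouse carried floxed Tmem173 (Tmem173 fl/fl), the gene of the DNA-sensing adaptor STING, and every mouse received tamoxifen. WT denotes mice without Cre, and CRE denotes mice that also carried a tamoxifen-inducible Cre under the promoter of Lyz2, a myeloid gene. Cells of each label were left as controls or stimulated with DMXAA, a small molecule that activates mouse STING. The series' design text gives its concentration as 40 µM. The study's methods give another unit for the dose, so the concentration is uncertain. The study's methods give more than one age range, in weeks, for mice at tamoxifen injection and do not say which applies to the mice behind these cultures. The meaning of a replicate number is not given in the sources used here. The p-values below therefore measure the spread between libraries, which may be technical.

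CC chemokines are small secreted proteins that guide leukocytes through G protein-coupled receptors. Ccl2, Ccl7 and Ccl12 act on Ccr2 and draw monocytes out of the marrow and into tissue. Ccl3, Ccl4 and Ccl5 attract T cells, natural killer cells and macrophages. Ccl6 and Ccl9 are ligands of Ccr1 that myeloid cells make without stimulation. STING, once bound by its ligand, activates the kinase Tbk1, which leads to interferon beta through Irf3 and to inflammatory genes through NF-kB.

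All 8 genes lie on chromosome 11 (GRCm38 coordinates, as the table gives them), in a pair of clusters. The first cluster spans 67.8 kb and holds Ccl2 (ENSMUSG00000035385, 82035571 to 82037453), Ccl7 (ENSMUSG00000035373, 82045712 to 82047525) and Ccl12 (ENSMUSG00000035352, 82101845 to 82103400), all on the plus strand. The second begins 1422 kb further on and spans 139 kb. It holds Ccl5 (ENSMUSG00000035042, 83525778 to 83530518, minus strand), Ccl9 (ENSMUSG00000019122, 83572919 to 83578636, minus strand), Ccl6 (ENSMUSG00000018927, 83587882 to 83593087, minus strand), Ccl3 (ENSMUSG00000000982, 83647844 to 83649355, minus strand) and Ccl4 (ENSMUSG00000018930, 83662584 to 83664683, plus strand). Each coordinate matched the GENCODE M21 gene model of GRCm38, with 4 exons in Ccl6 and Ccl9 and 3 in the others. Gm17268 on the opposite strand overlaps Ccl2 and held at most 1 count in any library. E230016K23Rik on the opposite strand overlaps Ccl6 and held at most 1029 counts, against at least 87035 for Ccl6 in every BMDC library. Whether counting used strand is not given in the sources used here.

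Promoter sequence was taken from RefSeq (GRCm38.p6) for the 4 members with an entry, Ccl12, Ccl3, Ccl6 and Ccl9, and not for Ccl2, Ccl4, Ccl5 and Ccl7. These 4 are shown because they are the members with an entry. Ccl12 and Ccl3 rose under DMXAA in WT cells of either kind, whereas Ccl6 and Ccl9 did not in the unpaired test. Each window is the 250 bases before the start site, read 5′ to 3′ on the gene's strand, and capitals mark matches to the motifs searched for.
Ccl12, chr11:82101595-82101844, plus strand: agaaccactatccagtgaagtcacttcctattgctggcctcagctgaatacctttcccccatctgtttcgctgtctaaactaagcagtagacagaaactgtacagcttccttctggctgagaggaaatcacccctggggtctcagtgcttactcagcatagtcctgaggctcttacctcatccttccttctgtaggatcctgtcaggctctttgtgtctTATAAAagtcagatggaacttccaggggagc
Ccl3, chr11:83649379-83649628, minus strand: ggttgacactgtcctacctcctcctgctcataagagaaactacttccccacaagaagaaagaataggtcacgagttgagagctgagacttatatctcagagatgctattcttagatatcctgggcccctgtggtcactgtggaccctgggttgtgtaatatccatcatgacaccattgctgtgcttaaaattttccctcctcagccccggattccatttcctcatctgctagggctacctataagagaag
Ccl6, chr11:83593088-83593337, minus strand: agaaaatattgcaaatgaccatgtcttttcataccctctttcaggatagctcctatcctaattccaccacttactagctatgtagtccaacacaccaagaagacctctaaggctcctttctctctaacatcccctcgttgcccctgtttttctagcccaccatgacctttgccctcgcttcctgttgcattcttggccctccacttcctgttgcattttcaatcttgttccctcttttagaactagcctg
Ccl9, chr11:83578637-83578886, minus strand: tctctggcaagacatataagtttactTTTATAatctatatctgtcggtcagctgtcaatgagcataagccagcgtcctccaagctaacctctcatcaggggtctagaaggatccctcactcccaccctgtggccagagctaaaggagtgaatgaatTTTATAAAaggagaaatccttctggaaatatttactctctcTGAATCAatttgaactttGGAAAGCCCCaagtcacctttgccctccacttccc

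Motifs were searched on both strands in the same 250 bases of 32851 promoters. TATAAA, the core promoter box, was found 31 bases before the start of Ccl12 and in 12.4% of all promoters. Ccl9 held TATAAA on one strand or the other at 3 places, the nearest beginning 92 bases before its start. It also held TGANTCA, the letters bound by AP-1, in the form TGAATCA (6.75% of all promoters) and the NF-kB consensus in the form GGAAAGCCCC (7.25%). The interferon-stimulated response element, bound by interferon regulatory factors, was in none of the 4 windows and in 2.98% of all promoters. GAGGAAGT, bound by PU.1, and TTGCNNAA, bound by C/EBP factors, were also in none of the 4, and in 2.44% and 9.56% of all promoters. At the shift that matched best without gaps, the windows of Ccl6 and Ccl9 were identical at 72 of 211 bases (34.1%), and the other 5 pairs lay between 32.9% and 36.2%.

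Total counts ranged from 15657347 to 18912887 per library. The 8 macrophage markers were read in every BMDM library numbered 1 or 2 (summed level 9535 to 21320 CPM, counts scaled to the library total), and the 8 dendritic cell markers in every BMDC library (2455 to 2855 CPM). The 4 BMDM libraries numbered 3, 1 per group, went against their label. Their macrophage markers summed to 42.5 to 71.6 CPM, their 6 leukocyte markers to at most 1.92 CPM (3135 to 4151 in the other 8 BMDM libraries) and their 8 fibroblast markers to 12660 to 19150 CPM (28.8 to 458 in the other 8). They are shown apart, and the tests use the other 8 BMDM libraries and all 12 BMDC libraries. The WT BMDM libraries numbered 2 had fibroblast markers at 422 and 458 CPM, whereas the other 6 had at most 63.1 CPM. Both BMDC CRE libraries numbered 2 had lower macrophage markers (2064 and 2197 CPM, against 6083 to 9113 in the other 10 BMDC libraries) and higher neutrophil markers (184 and 426 CPM, against 11.8 to 76.8). CRE BMDM libraries 1 and 2 were close to each other, with a chi-square per degree of freedom over genes of 3.23 in control and 4.95 under DMXAA, where every other pair in a group gave at least 14.2.

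Tmem173, the targeted gene, was read in every library. In WT BMDMs its level was 14.7 and 9.91 FPKM (fragments per kilobase of gene, with the deposited library scaling) in control and 31.8 and 22.8 under DMXAA. In CRE BMDMs it was 10.4 and 8.76 in control and 9.12 and 10.1 under DMXAA. Tmem173 was lower in CRE than in WT under DMXAA (log2 fold change -1.45 ± 0.24 SE, adjusted p = 0.00921, edgeR), whereas the control difference was -0.39 ± 0.23 (adjusted p = 0.77). In BMDCs it ranged from 28.8 to 55.3 FPKM in the 6 WT libraries and from 19.7 to 36.8 in the 6 CRE libraries. The difference was -0.43 ± 0.28 in control and -0.43 ± 0.28 under DMXAA, and neither passed the test (adjusted p = 1).

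The chemokines together took a larger part of the BMDC libraries than of the BMDM libraries. In BMDCs the 8 genes held 1.07 to 1.29% of all counts in WT control and 1.46 to 2.08% under DMXAA, with 1.04 to 1.33% and 1.38 to 1.8% in CRE. In BMDMs numbered 1 and 2 they held 0.117 and 0.168% in WT control and 0.411 and 0.469% under DMXAA. CRE BMDMs stayed at 0.124% in both control libraries and at 0.108 and 0.110% under DMXAA. The most abundant member by counts was Ccl6 in 11 of 12 BMDC libraries, Ccl9 in WT control and CRE BMDMs, and Ccl5 in WT BMDMs under DMXAA. In bulk RNA, fewer cells of a type and less RNA per cell cannot be told apart.

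**Figure D1:**
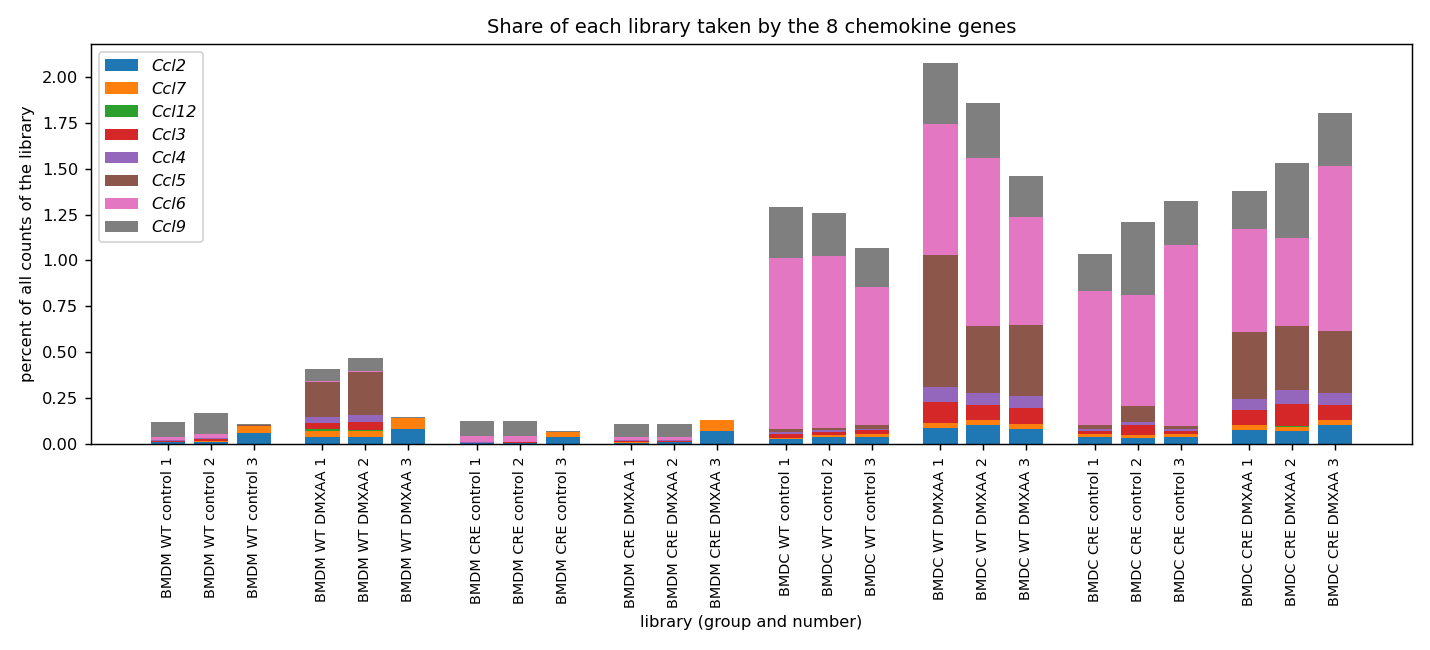
Percent of all counts (vertical axis) held by each chemokine gene, stacked, in each of the 24 libraries (horizontal axis, group and number). The BMDC bars are mostly Ccl6 and Ccl9, with Ccl5 added under DMXAA, and the BMDM bars reach 0.469%.

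DMXAA raised 6 of the 8 chemokines in WT cells of either kind. In WT BMDMs 6 members rose and 1 fell of the 8 tested, beside 39.2% of 11569 genes called (18.4% higher and 20.7% lower). In WT BMDCs 6 rose and 0 fell, beside 32.2% of 12126 genes called (17.0% higher and 15.2% lower). The rising genes were Ccl2, Ccl7, Ccl12, Ccl3, Ccl4 and Ccl5. In BMDMs Ccl5 passed the filter on low levels (an FPKM of 1 in 2 libraries) only through treated libraries. The filter itself thus favoured its rise, and its place in the BMDM counts of either label carries no weight. A gene was called at a Benjamini-Hochberg adjusted p under 0.05 in edgeR's quasi-likelihood test over all genes, two-sided. The median log2 fold change of the 8 was 2.94 in WT BMDMs and 2.26 in WT BMDCs, where the medians of all genes were -0.08 and 0.01. In CRE BMDCs the same 6 rose (25.4% of genes called, 14.0% higher and 11.4% lower), with a median of 1.73. In CRE BMDMs 5 rose and 1 fell, with a median of 1.75 (7.28% of genes called higher and 2.72% called lower). Leaving out either CRE control BMDM library left 3 members called (Ccl2, Ccl4 and Ccl12), and leaving out either treated CRE BMDM library left those and Ccl5.

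**Figure D2:**
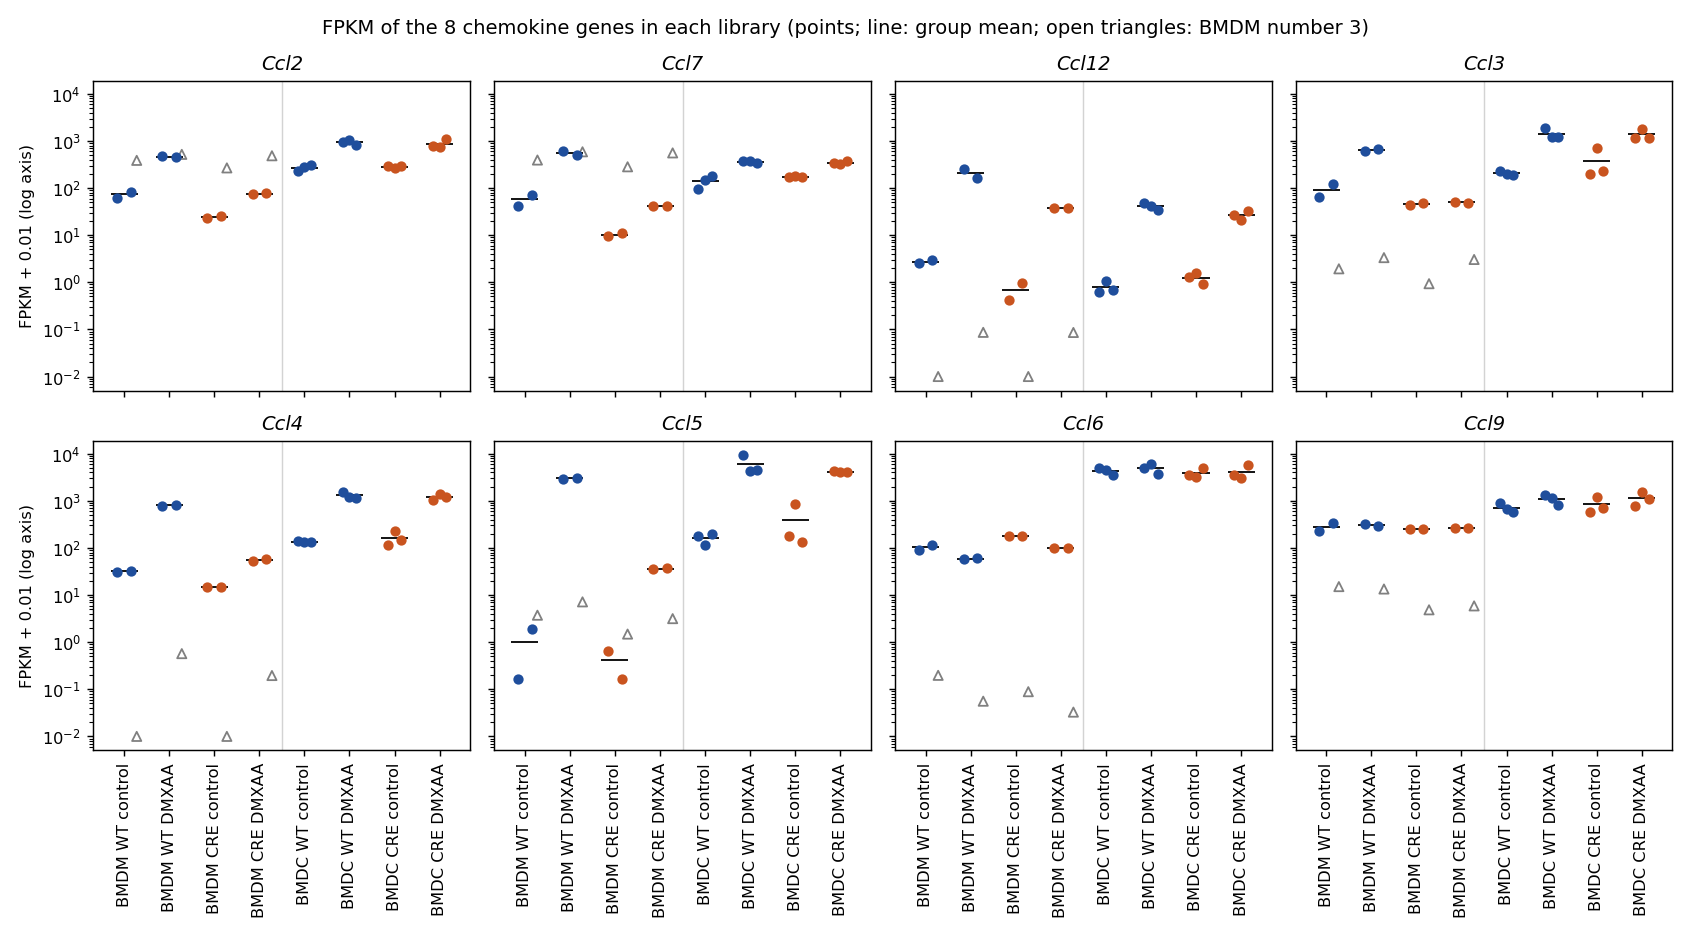
Level of each gene (FPKM + 0.01, log axis) in every library by group, WT in blue and CRE in orange, with a line at the group mean. Open triangles are the 4 BMDM libraries numbered 3, where Ccl2 and Ccl7 lie at 268 FPKM or more and the other 6 genes at or below 15.1.

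Among the ligands of Ccr2, Ccl2 (monocyte chemoattractant protein 1) had 62.6 and 83.7 FPKM in WT control BMDMs and 469 and 455 under DMXAA. In CRE BMDMs it had 23.6 and 25.4 in control and 75.3 and 77.5 under DMXAA. The DMXAA values lay above the control values in either label, and by FPKM the treated CRE libraries fell within the range of the untreated WT libraries. By CPM the treated CRE libraries (76.4 and 78.0) lay below both untreated WT libraries (79.9 and 106). Ccl2 rose by 2.55 ± 0.17 on the log2 scale in WT BMDMs (adjusted p = 0.000111) and by 1.62 ± 0.17 in CRE BMDMs (adjusted p = 0.00188). WT BMDCs held 229, 275 and 302 FPKM in control and 971, 1054 and 814 under DMXAA. In CRE BMDCs the values were 288, 269 and 289, then 771, 735 and 1087. Treated and control ranges were apart in both labels, while WT and CRE overlapped. The rise in BMDCs was 1.79 ± 0.19 in WT (adjusted p = 4.75e-05) and 1.59 ± 0.19 in CRE (adjusted p = 0.000133).

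Ccl7 (monocyte chemoattractant protein 3) shares the receptor and is the neighbour of Ccl2 in the cluster. It had 41.9 and 72.8 FPKM in WT control BMDMs and 613 and 507 under DMXAA, against 9.56 and 10.9, then 40.8 and 41.2, in CRE. The treated CRE libraries lay below both untreated WT libraries. The rise was 3.17 ± 0.28 in WT (adjusted p = 0.000322) and 1.97 ± 0.28 in CRE (adjusted p = 0.00757). In WT BMDCs Ccl7 had 94.9, 148 and 179 FPKM in control and 367, 385 and 340.5 under DMXAA. CRE BMDCs had 175, 178 and 169, then 334, 322 and 374. These were the smallest rises of the 6 in BMDCs, at 1.34 ± 0.21 in WT (adjusted p = 0.000534) and 0.96 ± 0.20 in CRE (adjusted p = 0.00528). The highest level of Ccl7 over the 8 groups was in WT BMDMs under DMXAA, above all BMDC libraries.

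Ccl12, a mouse chemokine of the same monocyte-attracting group, was near the limit of reading without DMXAA. Its control levels were 2.55 and 2.91 FPKM in WT BMDMs, 0.416 and 0.938 in CRE BMDMs, and 0.602 to 1.58 over the 6 control BMDC libraries. Under DMXAA WT BMDMs had 259 and 168 FPKM and CRE BMDMs had 37.3 and 37.4. WT BMDCs reached 49.0, 41.4 and 34.1, and CRE BMDCs 27.1, 21.3 and 32.6. The CRE values lay below every WT value in BMDMs and, by a narrow margin, in BMDCs. The rise was 6.16 ± 0.32 in WT BMDMs (adjusted p = 3.9e-05), 5.71 ± 0.36 in CRE BMDMs (adjusted p = 0.000193), 5.70 ± 0.32 in WT BMDCs (adjusted p = 4.37e-07) and 4.39 ± 0.30 in CRE BMDCs (adjusted p = 1.75e-06). Ccl12 thus had lower treated levels in BMDCs than in BMDMs, the reverse of Ccl2.

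Among the genes that attract T cells and macrophages, Ccl3 (macrophage inflammatory protein 1 alpha) was called under DMXAA in WT BMDMs and not in CRE BMDMs. WT BMDMs had 64.2 and 121 FPKM in control and 622 and 689 under DMXAA. CRE BMDMs had 44.5 and 47.2 in control and 50.8 and 48.6 under DMXAA. Ccl3 rose by 2.71 ± 0.29 in WT (adjusted p = 0.000747), whereas the CRE difference was 0.09 ± 0.28 with a 95% interval from -0.46 to 0.65 (adjusted p = 0.87). In WT BMDCs Ccl3 went from 236, 202 and 192 to 1859, 1193 and 1238 FPKM. CRE BMDCs had 198, 694 and 229 in control and 1179, 1826 and 1172 under DMXAA, with both high values in the libraries numbered 2. Ccl3 rose by 2.74 ± 0.44 in WT BMDCs (adjusted p = 0.000691) and by 1.88 ± 0.42 in CRE BMDCs (adjusted p = 0.00707).

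Ccl4 (macrophage inflammatory protein 1 beta), the neighbour of Ccl3 on the other strand, had the smallest standard errors of the 8 genes in BMDMs. Its level was 30.9 and 33.0 FPKM in WT control BMDMs and 782 and 811 under DMXAA, and 14.9 and 14.8, then 53.6 and 58.1, in CRE. The 4 BMDM groups did not overlap. The rise was 4.53 ± 0.13 in WT BMDMs (adjusted p = 7.32e-06) and 1.89 ± 0.12 in CRE BMDMs (adjusted p = 0.000193). WT BMDCs went from 143, 135 and 132 to 1562, 1209 and 1145 FPKM, and CRE BMDCs from 117, 231 and 149 to 1042, 1397 and 1183. These rises were 3.23 ± 0.25 (adjusted p = 3.93e-06) and 2.84 ± 0.24 (adjusted p = 9.75e-06), and WT and CRE overlapped.

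Ccl5, also known as RANTES, spanned the widest range. WT control BMDMs held 3 and 38 counts (0.153 and 1.88 FPKM) and CRE control BMDMs 11 and 3 counts (0.641 and 0.157 FPKM). Under DMXAA the WT libraries had 2861 and 3122 FPKM and the CRE libraries 35.5 and 36.9. The rise was 11.39 ± 0.86 in WT BMDMs (adjusted p = 0.000182) and 6.49 ± 0.82 in CRE BMDMs (adjusted p = 0.00493). Since the control libraries held few reads, the size of these rises is imprecise. The gene also entered the BMDM test only through treated libraries, which favoured a rise. WT BMDCs already had 178, 113 and 197 FPKM in control and reached 9417, 4396 and 4538. CRE BMDCs had 179, 842 and 132 in control and 4233, 4189 and 4129 under DMXAA. The value of 842 came from the library numbered 2. The rise was 5.20 ± 0.69 in WT BMDCs (adjusted p = 0.000215) and 3.42 ± 0.63 in CRE BMDCs (adjusted p = 0.00242). The mean of treated WT BMDCs placed Ccl5 at rank 4 of all genes by FPKM. The 6 T and NK cell markers, cells that also make Ccl5, summed to at most 3.001 CPM in any library.

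Among the ligands of Ccr1, Ccl6 and Ccl9 did not rise in BMDMs. Ccl6 was at 88.7 and 117 FPKM in WT control BMDMs and at 56.9 and 62.0 under DMXAA, and at 176 and 178, then 99.8 and 102, in CRE. It fell by 0.91 on the log2 scale in WT (SE 0.16, adjusted p = 0.00538) and by 0.83 in CRE (SE 0.16, adjusted p = 0.0241). Its BMDC level was far higher, at 5022, 4592 and 3599 FPKM in WT control and 4999, 5951 and 3671 under DMXAA. CRE BMDCs had 3527, 3169 and 4909.9, then 3515, 3119 and 5862. The treated and control ranges overlapped in both labels, and the DMXAA difference was 0.12 ± 0.28 in WT (95% interval -0.43 to 0.67) and 0.08 ± 0.28 in CRE (-0.47 to 0.63). By CPM Ccl6 was lower under DMXAA in every same-numbered BMDC pair. In WT it went from 9313, 9351 and 7505 to 7154, 9182 and 5882. In CRE it went from 7337, 6044 and 9859 to 5625, 4814 and 9002. The direction in BMDCs thus depends on the library scaling. For WT BMDMs, a fit of the compared groups alone gave a Ccl6 difference of -0.85, and the fall was not called there (adjusted p = 0.079, edgeR).

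Ccl9 was the steadiest member in BMDMs. It had 233 and 336 FPKM in WT control, 322 and 295 under DMXAA, 258 and 253 in CRE control and 260.3 and 267 in treated CRE. By CPM it was lower under DMXAA, from 795 and 1141 to 672 and 692 in WT and from 828 and 811 to 706 and 719 in CRE. The DMXAA difference was 0.00 ± 0.18 in WT (95% interval -0.36 to 0.36) and 0.02 ± 0.18 in CRE (-0.34 to 0.39). In BMDCs the levels were 883, 679.6 and 594 in WT control and 1360.2, 1139.5 and 818 under DMXAA, and 576, 1229 and 715, then 765, 1555 and 1102, in CRE. In all 6 same-numbered pairs the treated library was the higher. The unpaired difference was 0.60 ± 0.32 in WT (adjusted p = 0.19) and 0.42 ± 0.32 in CRE (adjusted p = 0.41). With the replicate number as a block within genotype, Ccl9 was called higher in WT (0.59, adjusted p = 0.001275) and in CRE (0.43, adjusted p = 0.008227), so that 7 members were called in each label. For that fit the share of all genes called is not given. The numbers pair the BMDC libraries by the correlation of their deviations.

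**Figure D3:**
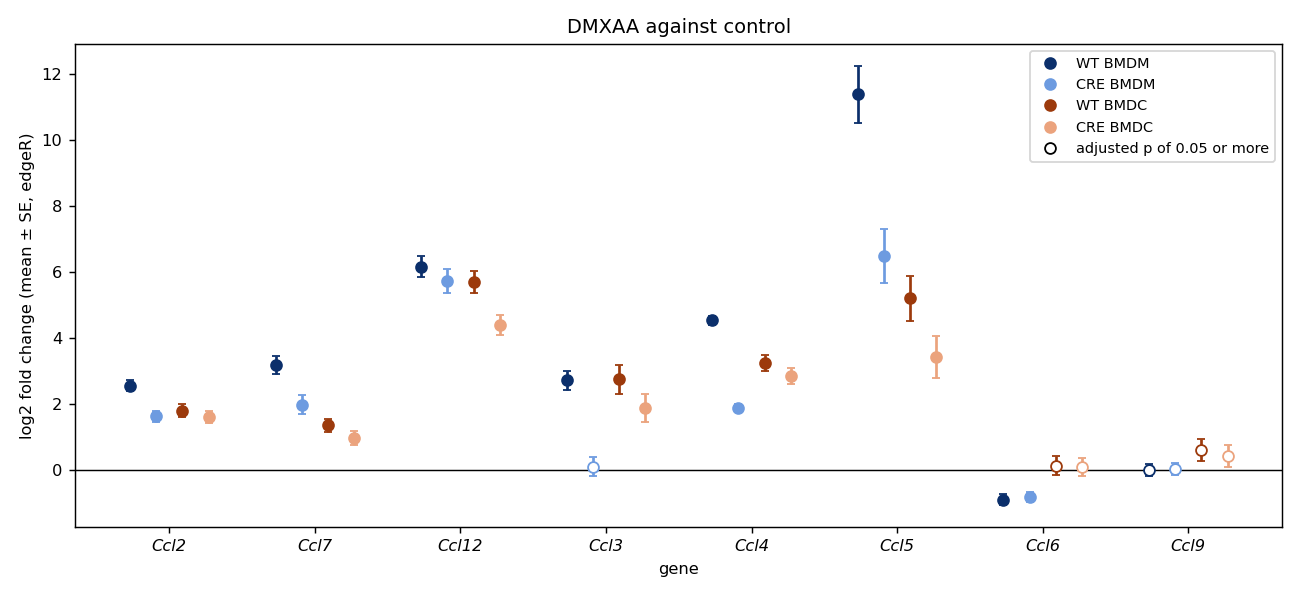
Log2 fold change of DMXAA against control (mean ± SE, edgeR) for each gene in WT and CRE BMDMs and BMDCs, with open symbols where the adjusted p was 0.05 or more. Ccl5 in WT BMDMs has the highest value, 11.39, and Ccl6 in BMDMs lies below 0.

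The CRE label went with lower chemokine levels in BMDMs under DMXAA. Of the 8 members 6 were lower in CRE and 1 was higher, beside 19.2% of genes called (9.99% lower and 9.26% higher). The mean CRE level was 1.21% of the WT mean for Ccl5, 7.01% for Ccl4, 7.32% for Ccl7, 7.58% for Ccl3, 16.6% for Ccl2 and 17.5% for Ccl12. The log2 differences ran from -6.32 ± 0.68 for Ccl5 (adjusted p = 0.00236) and -3.79 ± 0.13 for Ccl4 (adjusted p = 0.000222) to -2.46 ± 0.26 for Ccl12 (adjusted p = 0.00236). Ccl6 was higher in CRE by 0.81 ± 0.16 (adjusted p = 0.0173), at 170% of the WT mean. Ccl9 differed by -0.18 ± 0.18 (adjusted p = 0.55), at 85.5%. With all 12 BMDM libraries in the fit 0 members were called, and with the replicate number as a block in that fit only Ccl4 was called. Leaving out either treated CRE library left 5 members called, without Ccl5 and Ccl6, and leaving out WT DMXAA library 1 left 6, without Ccl6. Summed markers of other cell types also differed between the treated BMDM groups. Dendritic cell markers were at 444 to 479 CPM in CRE and 122 to 198 in WT, macrophage markers at 9535 to 9663 and 11450 to 13240, and fibroblast markers at 28.8 to 32.4 and 29.6 to 422. Their part in the differences was not tested.

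In untreated BMDMs 0 members passed the edgeR test, beside 0.0432% of genes called. Ccl7 was at 17.9% of the WT mean (-2.52 ± 0.28, adjusted p = 0.080), Ccl2 at 33.5% (-1.62 ± 0.17, adjusted p = 0.058) and Ccl4 at 46.6% (-1.14 ± 0.12, adjusted p = 0.058). Ccl12 was at 24.8%, Ccl5 at 39.3% with overlapping libraries, Ccl3 at 49.7%, Ccl9 at 89.7% and Ccl6 at 171%. At an unadjusted p under 0.05 the test held 6 members (Ccl2, Ccl3, Ccl4, Ccl6, Ccl7 and Ccl12), beside 793 of all 11569 tested genes. DESeq2 called the same 6, and limma on log2(FPKM + 1) called Ccl2 and Ccl4. The shares of all genes called in these alternative fits are not given. Fibroblast markers were at 63.1 and 458 CPM in the WT control libraries and at 47.8 and 53.9 in the CRE control libraries. Their part in the difference was not tested.

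Whether the response itself differed between the labels was tested by the interaction of genotype and DMXAA. In BMDMs 2 members were called, both with a negative term, beside 3.66% of genes (2.28% negative and 1.38% positive). Ccl4 rose less in CRE by 2.64 ± 0.17 log2 units (adjusted p = 0.00409) and Ccl3 by 2.62 ± 0.40 (adjusted p = 0.0268). The interaction was -4.90 ± 1.40 for Ccl5 (adjusted p = 0.11), -1.20 ± 0.38 for Ccl7 (adjusted p = 0.14), -0.93 ± 0.23 for Ccl2 (adjusted p = 0.085) and -0.45 ± 0.53 for Ccl12 (adjusted p = 0.71). Leaving out any 1 of the 4 CRE libraries, control or DMXAA, left 0 members called, with terms of -2.67 to -2.57 for Ccl3 and -2.71 to -2.61 for Ccl4, and leaving out WT DMXAA library 1 left Ccl4. Leaving out WT control library 1 gave 4 called members, and leaving out WT control library 2 gave 5. DESeq2 called 5 members (Ccl2, Ccl3, Ccl4, Ccl5 and Ccl7). For these alternative fits the shares of all genes called are not given, so the counts of members cannot be set against them.

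In BMDCs none of the members differed between the labels by the edgeR test, in control, under DMXAA or in the interaction. The count of called genes was 0 over all 12126 genes in each of these 3 tests (0% called), and DESeq2 called 0 members. At an unadjusted p under 0.05 the edgeR tests held 0 members in control and 1, Ccl12, both under DMXAA and in the interaction. Over all genes such p-values numbered 99 in control, 108 under DMXAA and 60 in the interaction. Under DMXAA the CRE mean was 65.1% of the WT mean for Ccl12 (-0.61 ± 0.25, 95% interval -1.09 to -0.12) and 68.4% for Ccl5 (-0.53 ± 0.58, -1.66 to 0.61). The other 6 lay between 85.5% and 103%, with intervals of -0.48 to 0.24 for Ccl2, -0.82 to 0.77 for Ccl3, -0.54 to 0.34 for Ccl4, -0.77 to 0.34 for Ccl6, -0.47 to 0.32 for Ccl7 and -0.58 to 0.69 for Ccl9. In control, Ccl5 was at 236% of the WT mean and Ccl3 at 178%, through the CRE library numbered 2. With both CRE libraries of that number left out, the control difference of Ccl5 went from 1.25 to -0.05, and the same 6 members rose under DMXAA in each label. The interaction was -1.78 ± 0.82 for Ccl5 (unadjusted p = 0.053) and -1.30 ± 0.41 for Ccl12 (unadjusted p = 0.0091), with an adjusted p of 0.9999 for each in edgeR.

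**Figure D4:**
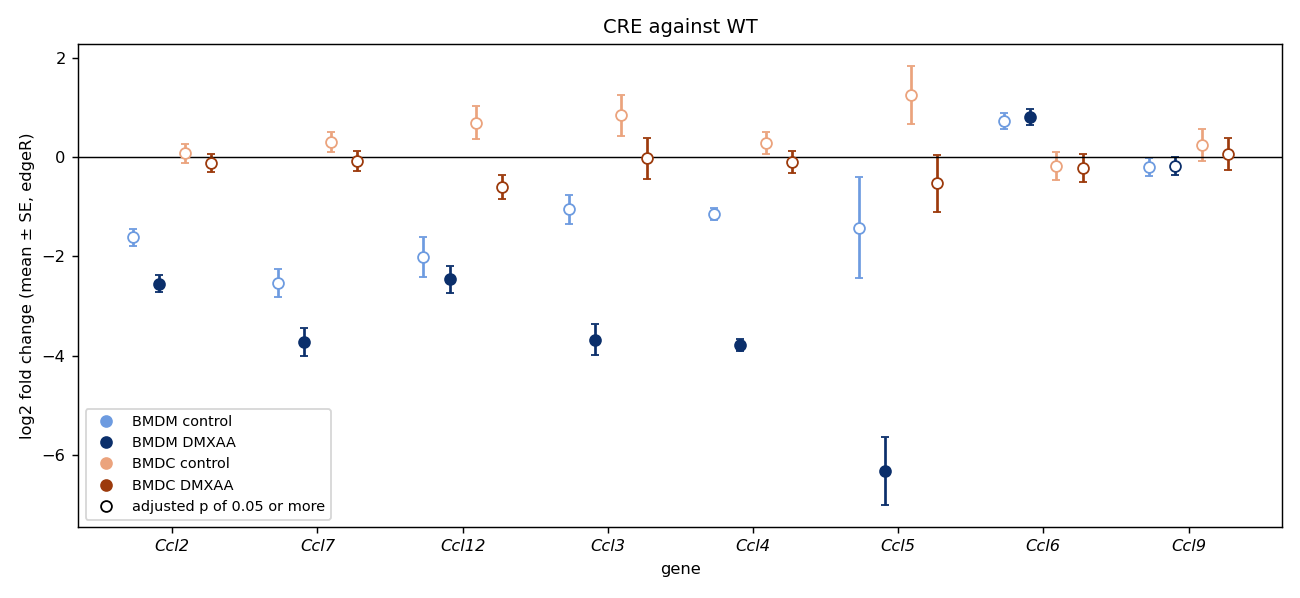
Log2 fold change of CRE against WT (mean ± SE, edgeR) for each gene in control and DMXAA-treated BMDMs and BMDCs, with open symbols where the adjusted p was 0.05 or more. Filled symbols are seen only in BMDMs under DMXAA, at -6.32 to -2.46 for 6 genes and 0.81 for Ccl6.

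The cell kinds were compared in WT. In control 6 members were higher and 1 lower in BMDCs, beside 28.6% of 12730 genes called (14.6% higher and 13.9% lower). Ccl5 differed most (7.29 ± 0.998, adjusted p = 5.46e-05), then Ccl6 (5.41 ± 0.36, adjusted p = 6.37e-08), Ccl4 (2.09 ± 0.24) and Ccl2 (1.87 ± 0.20). Ccl9 and Ccl7 were higher by 1.32 ± 0.34 and 1.28 ± 0.25. Ccl12 was lower in BMDCs (-1.82 ± 0.35, adjusted p = 0.00102), and Ccl3 did not pass (1.17 ± 0.44, adjusted p = 0.058). Under DMXAA 4 were higher and 1 lower (31.3% of genes called, 15.2% higher and 16.1% lower), namely Ccl6 (6.39 ± 0.38), Ccl9 (1.87 ± 0.35), Ccl2 (1.07 ± 0.20), Ccl4 (0.74 ± 0.22) and, lower, Ccl12 (-2.33 ± 0.26). Ccl4 was not called without treated BMDM library 1 (0.70, adjusted p = 0.109), treated BMDM library 2 (0.80, adjusted p = 0.062) or treated BMDC library 1 (0.62, adjusted p = 0.058). In control, Ccl9 was not called without BMDM library 1 (1.05, adjusted p = 0.12). Ccl5, 7.29 apart in control, differed by 1.05 ± 0.69 under DMXAA (adjusted p = 0.27).

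The WT response was smaller in BMDCs for 3 members, beside 2.99% of genes called (2.20% in that direction and 0.793% in the other). The interaction of cell kind and DMXAA was -6.23 ± 1.11 for Ccl5 (adjusted p = 0.00549), -1.87 ± 0.34 for Ccl7 (adjusted p = 0.00602) and -1.35 ± 0.31 for Ccl4 (adjusted p = 0.0279). Ccl4 was not called once any 1 of the 10 WT libraries was left out, except for treated BMDC library 1. Ccl7 was not called in a fit of the compared groups alone (-1.87, adjusted p = 0.0615). For Ccl12 it was -0.51 ± 0.46 and for Ccl3 -0.02 ± 0.59, and neither passed. Cell kind goes with the culture medium in this design, so cells and culture cannot be told apart.

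The order of the 8 groups differed between members. Mean levels of Ccl2, Ccl3, Ccl4 and Ccl5 were highest in WT BMDCs under DMXAA, followed by CRE BMDCs and WT BMDMs under DMXAA. For the first 3 of these genes the leading groups overlapped, while for Ccl5 the lowest treated WT BMDC library (4396 FPKM) lay above the highest CRE one (4233). Ccl7 and Ccl12 were highest in treated WT BMDMs, apart from the next group. The 4 BMDC groups led for Ccl6 and Ccl9. Neighbouring BMDC groups overlapped, and all lay apart from the BMDM groups. Of the 7 neighbouring pairs of groups in each order, 5 overlapped for Ccl9, 4 for Ccl6, 3 each for Ccl2, Ccl3 and Ccl12, and 2 each for Ccl4, Ccl5 and Ccl7.

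Across the 20 libraries used in the tests, levels on the log2(FPKM + 1) scale varied together within 2 sets of genes. Pearson's r lay between 0.894 and 0.976 for every pair among Ccl2, Ccl3, Ccl4, Ccl5 and Ccl7, and was 0.900 for Ccl6 with Ccl9. Ccl12 stood apart, with r from 0.512 to 0.665 against the first 5 and -0.24 against Ccl6. These values describe libraries that share cell kind and treatment, and carry no test. Among the members, Ccl12 comes next after Ccl7 on the chromosome (starts at 82101845 and 82045712), and Ccl6 and Ccl9 lie between Ccl5 and Ccl3. Other genes between members were not listed. Among 5725 other genes with enough signal, those most like Ccl2 were Upp1 (r = 0.977), Ripk2 (0.973) and Abtb2 (0.972), and those most like Ccl3 were Rgcc (0.972), Abtb2 (0.971) and Traf1 (0.964). Ripk2 (0.984), Rnf19b (0.983) and Prpsap1 (0.979) were nearest to Ccl4, and AW112010 (0.988), Cd86 (0.978) and Polr3c (0.976) to Ccl5. Ccl7 was nearest to H2-Q6 (0.968), Ralgds (0.942) and Ptpn2 (0.933), and Ccl12 to Apol9b (0.987), Aida (0.982) and Aftph (0.980). Ccl6 was nearest to Chil3 (0.990), Cd74 (0.988) and Cd1d1 (0.987), and Ccl9 to Srgn (0.973), Gm4610 (0.970) and Chp1 (0.968).

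**Figure D5:**
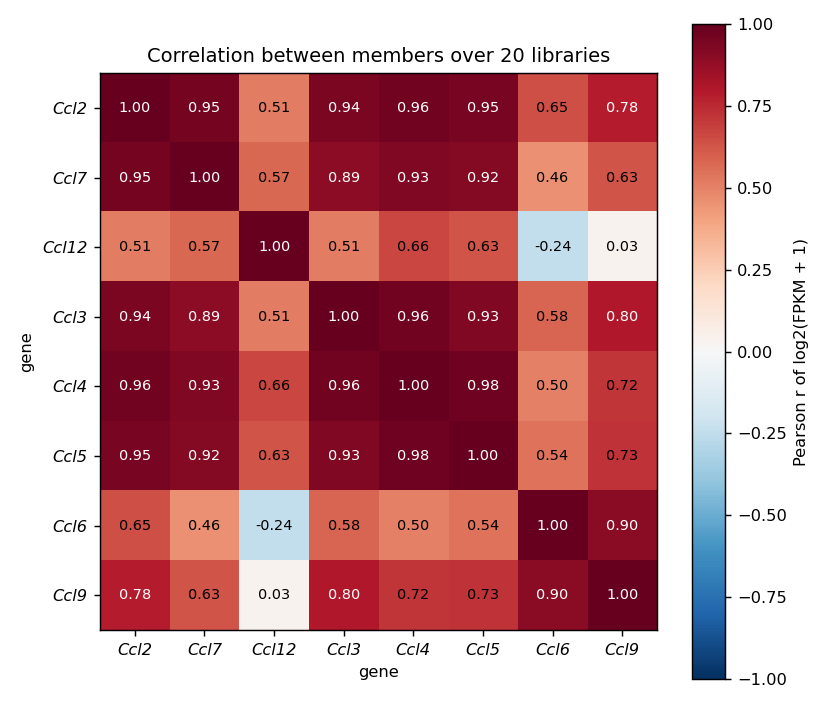
Pearson's r of log2(FPKM + 1) between each pair of the 8 genes over 20 libraries (12 BMDC, 8 BMDM), with red for positive and blue for negative values. Ccl2, Ccl7, Ccl3, Ccl4 and Ccl5 form 1 block at 0.894 or above, Ccl6 pairs with Ccl9, and Ccl12 has lower values.

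Other genes of the pathway were followed by fixed lists. Of 13 other CC chemokines 5 passed the filter on low levels in BMDCs. Of these 2 rose in WT, beside 17.0% of all tested genes. They were Ccl8 (4.12 ± 0.87) and Ccl22 (2.37 ± 0.51), a ligand of Ccr4 on T cells. In WT BMDMs 2 were tested and both rose, beside 18.4% of all tested genes. Both passed the filter only through treated libraries, so the filter itself favoured a rise and the count carries no weight. Ccl22 rose by 3.14 ± 0.43, from a mean of 0.197 FPKM in control to 1.89 ± 0.52 (SD, n = 2). Ccl8 went from a mean of 0.139 FPKM in control to 14.9 ± 2.89 (SD, n = 2). Among the receptors in WT BMDCs, Ccrl2, a non-signalling binder of chemerin, rose by 6.20 ± 0.37 and Ccr7, which guides dendritic cells to lymph nodes, by 2.23 ± 0.52. Ccr2, the receptor of Ccl2, Ccl7 and Ccl12, fell by 3.08 (SE 0.72). In WT BMDMs Ccrl2 rose by 4.84 ± 0.82.

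Of 26 upstream signalling genes 23 rose and 1 fell in WT BMDCs, where 17.0% of all tested genes rose and 15.2% fell. In WT BMDMs 18 of 25 rose and 1 fell, beside 18.4% and 20.7% of all tested genes. Ifnb1 is in this list and passed the filter on low levels only through treated libraries, in either cell kind. It could therefore only rise. Ifnb1, interferon beta, was listed at 0 FPKM in every control library of the 20 and had 49.3 ± 12.4 FPKM (SD, n = 3) in treated WT BMDCs, 39.7 ± 17.0 (SD, n = 3) in treated CRE BMDCs, 10.8 ± 11.8 (SD, n = 2) in treated WT BMDMs and 0.0413 ± 0.0584 (SD, n = 2) in treated CRE BMDMs. Irf7, which amplifies interferon, rose by 7.23 ± 0.36 in BMDCs and 8.43 ± 0.31 in BMDMs. Irf3 fell by 0.59 (SE 0.15) in BMDCs, and Jun, a subunit of AP-1, fell by 0.78 (SE 0.13) in BMDMs. In CRE cells 22 of 26 rose in BMDCs, beside 14.0% of all tested genes, and 6 of 25 in BMDMs, beside 7.28%. Under DMXAA 15 of the 25 were lower and 1 higher in CRE than in WT BMDMs, beside 9.99% and 9.26% of all tested genes, and 0 of 26 were called in BMDCs, beside 0%.

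In the BMDM libraries numbered 3, Ccl2 and Ccl7 were high and the other members low. Ccl2 had 388 FPKM in WT control, 520 under DMXAA, 268 in CRE control and 485 in treated CRE. Ccl7 had 394, 589, 283 and 558 in the same order. Their control levels were above the highest control level of libraries 1 and 2 of the same label, which was 83.7 for Ccl2 and 72.8 for Ccl7 in WT. Ccl4 and Ccl12 held 0 counts in both control libraries, and under DMXAA Ccl4 held 9 counts in WT and 3 in CRE, and Ccl12 1 count in each. Ccl6 held 1 to 8 counts and Ccl9 313 to 1093 counts. Each group has 1 such library, so no test was made.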

How the data were processed

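PolyA RNA of bulk BMDM cultures (bone marrow kept in L929 supernatant) and BMDC cultures (kept in GM-CSF plus IL-4) was read in 24 libraries. The submitters' processing notes name CASAVA 1.8, fastp, HISAT2 2.0.5, featureCounts 1.5.0-p3 and DESeq2 1.20.0. The authors deposited raw counts per gene, and FPKM values scaled by gene length and by a library factor that was not the total count. For Ccl9 in the WT BMDM libraries numbered 1, control and DMXAA had 795 and 672 CPM but 233 and 322 FPKM. The deposited log2 fold changes and p-values of the authors' own comparisons were not used. All 48 columns of per-library values were matched to a library by title, 0 were left unmatched, and 0 rows lacked a gene name.

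Counts were tested with the quasi-likelihood test of edgeR 4.0.16 (R 4.3.3), two-sided, with TMM scaling. A gene entered the test when 3 or more libraries (2 for BMDMs) reached an FPKM of 1, in 1 fit per cell kind (12 BMDC libraries, 8 BMDM libraries) or in 1 fit of all 20. Calls were made where the p adjusted by Benjamini-Hochberg over every tested gene was under 0.05. Standard errors were the log2 fold change divided by the square root of F. The 95% intervals used 1.96 of them, make no allowance for the few libraries and are narrower than the test implies. For the genotype interaction of Ccl5 in BMDCs the interval was -3.39 to -0.163, at an unadjusted edgeR p of 0.053. Where a group held at most 3 counts per library, no fitted fold was given as a bound. Total counts were 15657347 to 18912887 per library. Intervals of single libraries cover counting error only, since no molecular identifiers were used and reads can be copies of 1 molecule. On simulated data 86.5% (BMDC, 12126 genes) and 81.0% (BMDM, 11569 genes) of 200 genes changed 4-fold were recovered, with 11 false calls each. The changed genes had a mean above 1 CPM. Each gene was given 1 spread for all groups and no pairing, so the simulation does not cover the unequal spread of the BMDM labels.

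Pairing by number was checked by the correlation of deviations from group means. Between control and DMXAA of a label in BMDCs it was 0.395 to 0.645 in WT and 0.515 to 0.677 in CRE, and across labels it fell to -0.501. Numbers were thus taken to pair treated and untreated BMDC libraries of 1 label, from the data and not from the labels. Members, lists and the choice to show BMDM number 3 apart were made with earlier results of these data known. The genes named are the members, Tmem173, the 3 genes most alike each member (among genes that reach an FPKM of 10 in 3 libraries, by Pearson's r of log2(FPKM + 1)) and, of each list, the called genes with the 2 largest rises and 2 largest falls in WT BMDCs and WT BMDMs. Counts over the receptor list are not reported here. Alternatives used DESeq2 1.42.0, limma 3.58.1 with a pseudocount of 1, other filters and scalings, blocks and left-out libraries. Shares of all genes called are given for the main fits only. Figures were drawn with matplotlib 3.10.9.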

Additional observations from a re-analysis of the deposited data

Results flagged for a closer look

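The response to DMXAA differed between the genotype labels in BMDMs for 2 chemokines by the interaction term of edgeR, with libraries 1 and 2 of each group. The term was -2.62 for Ccl3 and -2.64 for Ccl4 on the log2 scale, a smaller rise in CRE. It was not called for either gene once any 1 of the 4 CRE libraries was left out. The response differed between cell kinds in WT for Ccl4 (-1.35), Ccl5 (-6.23) and Ccl7 (-1.87), a smaller rise in BMDCs. With 1 library left out, these terms ranged from -1.41 to -1.23, -8.89 to -5.31 and -2.30 to -1.48, in that order. Ccl4 was not called in most of those fits, and Ccl7 was not called with the compared groups alone. The Ccl5 term rests on 3 and 38 counts in the WT control BMDM libraries.

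The 4 BMDM libraries numbered 3, which the tests leave out, had higher levels of some chemokines under DMXAA than in control. The ratio of CPM was 1.35 in WT and 1.85 in CRE for Ccl2 (exact 95% intervals 1.32 to 1.39 and 1.8 to 1.91), and 1.51 and 2.02 for Ccl7 (1.46 to 1.55 and 1.95 to 2.09). It was 1.75 and 3.37 for Ccl3 (1.14 to 2.72 and 1.88 to 6.41) and 1.94 and 2.19 for Ccl5 (1.48 to 2.54 and 1.41 to 3.47). Ccl9 had a ratio of 1.24 in CRE (1.07 to 1.44), and 0.896 in WT (0.821 to 0.977). Ccl6 in WT had a ratio of 0.246 (0.0255 to 1.23), from 8 counts in control and 2 under DMXAA. Ccl4 in WT was at least 2.96-fold higher under DMXAA, against a floor of 3 counts in the control library. Each ratio compares 2 libraries, not conditions, and its interval covers counting error only.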

How the results depend on the processing

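Of 1583 alternative values of single chemokines, 1372 kept their direction and side of the threshold, 64 newly passed it, 91 no longer passed it and 56 changed sign, of which 54 were called in neither fit. Of 198 counts of called members, 167 stayed within 1.5 times. Shares of all genes called are not given for the alternative fits. Whether a higher count went with more calls over all genes is therefore not shown. For CRE against WT in control BMDMs the count went from 0 to 2 with an FPKM of at least 5, 7 with no filter, 6 with DESeq2 and 2 with limma, and for the BMDM genotype interaction from 2 to 5, 5 and 4 with no filter, DESeq2 and limma. With all 12 BMDM libraries 0 members were called in the WT response, the CRE response, CRE against WT under DMXAA, the genotype interaction, BMDC against BMDM under DMXAA and the cell kind interaction, and 1 (Ccl5) in BMDC against BMDM in control, where Ccl7 became -0.24 and the cell kind interaction of Ccl2 0.35. With all 12 and the replicate block the counts were 2, 2, 1 and 0 for the first 4 of these, and Ccl9 was -0.003214 in WT. Leaving out both WT BMDM libraries numbered 2, chosen after seeing the data, gave 6 members in control and 6 in the genotype interaction, with the spread then coming from the CRE pairs alone. There Ccl5 (1.27) and Ccl9 (0.11) changed sign in control, and Ccl9 (-0.35, adjusted p = 0.002153 in edgeR) and Ccl6 (-0.09319) in the interaction. The interaction of Ccl9 was also -0.04557 with median-of-ratios scaling, -0.04555 with DESeq2, -0.09094 with limma, -0.04897 with all 12 libraries and -0.00373 with the block within genotype, and that of Ccl6 -0.03031 with limma and -0.002775 with all 12. With an FPKM of at least 5 Ccl9 was -0.0359 in the WT and -0.03089 in the CRE response of BMDMs, and with no filter the cell kind interaction of Ccl3 was 0.05904. Leaving out both BMDC CRE libraries numbered 2, also chosen after seeing the data, gave -0.02949 for Ccl4, -0.04983 for Ccl5 and -0.14 for Ccl9 in control, -0.24 for Ccl9 under DMXAA and 0.001862 for the interaction of Ccl6. The cause of these changes was not tested.

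Leaving out 1 replicate at a time, members called ranged from 0 to 4 in CRE against WT control BMDMs, 0 to 5 in the BMDM genotype interaction and 3 to 4 in the CRE BMDM response. Values that changed sign ranged from -0.04665 to 0.28 (Ccl6, WT BMDC response), -0.25 to 0.29 (Ccl6, CRE BMDC response) and -0.24 to 0.31 (Ccl9, WT BMDM response). In CRE against WT control BMDCs they ranged from -0.03833 to 0.17 for Ccl2, -0.02874 to 0.48 for Ccl4, -0.04902 to 1.66 for Ccl5 and -0.14 to 0.45 for Ccl9. Under DMXAA they ranged from -0.27 to 0.18 for Ccl3, -0.22 to 0.02448 for Ccl4 and -0.24 to 0.27 for Ccl9. The BMDC genotype interaction ranged from -0.38 to 0.17 for Ccl6 and -0.47 to 0.19 for Ccl9. In control BMDMs the difference ranged from -2.69 to 1.28 for Ccl5 and -0.45 to 0.11 for Ccl9, and the BMDM interaction from -0.17 to 0.26 for Ccl6, -0.29 to 0.26 for Ccl9 and -0.89 to 0.26 for Ccl12. The cell kind interaction of Ccl3 ranged from -0.52 to 0.42. With the replicate number as a block the count was 8 in BMDC against BMDM in control and 7 under DMXAA, and the block within genotype gave 7 in each BMDC response and 3 in the BMDM genotype interaction. With 2 libraries per BMDM group, and CRE pairs at a biological coefficient of variation of 5.19% against 35.1% in WT, the BMDM genotype tests rest on a narrow and unequal spread.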
